A study of Mus musculus with 7 samples.

Results

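Homeostatic microglia genes are genes that resting microglia, the resident macrophages of the brain, express at high levels and that most other brain cells lack. The set examined here held 9 genes taken by symbol from the expression table, namely P2ry12, P2ry13, Gpr34, Cx3cr1, Siglech, Tmem119, Selplg, Olfml3 and Sall1. All 9 were among the 20859 genes listed, and all 9 passed the filter on low counts in cortex and in hippocampus. The study asked what targeting CD38, a surface enzyme that consumes NAD, changed in mice that model Alzheimer's disease and that its labels call FAD.

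Mice of 3 groups were compared in each region. WT PBS mice were wild type and received PBS (9 mice in cortex, 8 in hippocampus). FAD IgG mice carried the FAD model and received IgG (7 mice in each region), and FAD CD38 mice carried the same model and were labelled CD38 (7 mice in each region). Genotype and injection therefore differ together between FAD and WT, and their parts cannot be told apart. The transgenes and their promoter, the mice's age, and the dose and nature of the CD38 agent are not stated in the labels. A further mouse was CD38 in the sample sheet and IgG in the well names, and its 2 wells entered no group. In all there were 24 mice and 47 wells in 7 library pools, and pool 8 held no FAD IgG mouse.

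Homeostatic microglia survey brain tissue with motile processes, and several of the 9 genes encode sensors on those processes. Microglia keep this program under transforming growth factor beta and colony-stimulating factor signals and the transcription factors PU.1 and SALL1. Near amyloid plaques many microglia are known to shift to a plaque-associated state in which sensors such as P2RY12 and TMEM119 are reduced per cell while Apoe, Cst7 and Tyrobp are raised. In bulk tissue, fewer cells of a type and less RNA per cell cannot be told apart, nor can more cells and more RNA per cell.

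The members were measured as 3' counts, so the start sites themselves were not observed, and RefSeq promoter windows (GRCm38.p6) are shown for genes that rose together. A window was matched for 6 of the 9 members, 1 each for P2ry12, P2ry13, Cx3cr1, Siglech and Olfml3 and 3 for Sall1, and none for Tmem119, Gpr34 and Selplg. The 250 bases before the annotated start are printed 5' to 3' in the direction of transcription for the 2 neighbouring purinergic receptors and for the 2 further members with a motif match, with matches in capitals.
P2ry12, chr3:59262986-59263235, minus strand: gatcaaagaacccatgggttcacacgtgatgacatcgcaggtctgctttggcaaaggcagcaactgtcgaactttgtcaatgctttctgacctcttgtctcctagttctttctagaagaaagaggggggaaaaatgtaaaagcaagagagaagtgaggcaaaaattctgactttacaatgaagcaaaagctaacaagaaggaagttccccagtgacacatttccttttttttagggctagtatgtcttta
P2ry13, chr3:59210883-59211132, minus strand: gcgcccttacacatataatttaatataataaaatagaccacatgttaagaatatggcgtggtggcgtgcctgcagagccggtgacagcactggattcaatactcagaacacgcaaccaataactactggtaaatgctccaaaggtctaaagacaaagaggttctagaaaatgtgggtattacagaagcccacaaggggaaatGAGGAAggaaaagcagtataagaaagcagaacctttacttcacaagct
Cx3cr1, chr9:120068297-120068546, minus strand: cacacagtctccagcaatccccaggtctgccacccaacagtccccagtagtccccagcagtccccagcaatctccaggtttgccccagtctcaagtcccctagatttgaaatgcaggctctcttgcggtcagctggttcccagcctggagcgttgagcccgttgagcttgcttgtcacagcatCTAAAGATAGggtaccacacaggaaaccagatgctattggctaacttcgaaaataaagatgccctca
Siglech, chr7:55767934-55768183, plus strand: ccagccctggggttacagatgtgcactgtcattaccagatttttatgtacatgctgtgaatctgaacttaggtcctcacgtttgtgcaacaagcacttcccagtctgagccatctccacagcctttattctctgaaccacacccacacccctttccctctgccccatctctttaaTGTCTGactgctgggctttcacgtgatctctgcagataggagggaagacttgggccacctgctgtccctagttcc
The letters searched on both strands were GAGGAA (the PU.1 core), CTA and TAG with any 4 bases between them (MEF2), CAGACA (SMAD) and TGANTCA (AP-1), and none of these matches overlapped another in the 4 windows. Of 32851 windows of this length, 23.3% held GAGGAA, 3.2% the MEF2 letters, 17.1% CAGACA and 6.75% TGANTCA. P2ry13 held 1 match to GAGGAA, Cx3cr1 held 1 to the MEF2 letters, Siglech held 1 to CAGACA, and no member window held TGANTCA. These matches are descriptions of letters, not sites.

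Total counts per well ran from 1270918 to 5101368. Ribosomal RNA took over 10% of counts in 6 wells, of which 4 were FAD IgG wells, 1 was the hippocampus well of FAD CD38 mouse 2632 (17.2%) and 1 the hippocampus well of WT PBS mouse 2756 (23.7%). The hippocampus of mouse 2632 had the lowest level of its group for 9 of 9 members and its cortex for 6 of 9. This count was not made for every mouse. The hippocampus of mouse 2756 was lowest of the WT mice for P2ry12, Tmem119, Cx3cr1, Siglech, Gpr34 and Selplg. It was not lowest for P2ry13, Sall1 or Olfml3. Levels are given as CPM, a gene's count scaled by the well's total count, with the lowest, median and highest mouse of each group. CPM was compared between groups for the same gene, or for a ratio or sum of genes taken within each well.

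FAD IgG mice had more RNA of most homeostatic genes than WT mice. In cortex 6 of the 9 members rose (P2ry13, Gpr34, Cx3cr1, Siglech, Selplg and Olfml3), by 1.91- to 2.68-fold, against 3.34% of the 12968 genes tested. In hippocampus 8 of 9 rose (also P2ry12 and Sall1), by 1.72- to 3.27-fold, against 4.48% of 12728. Tmem119 did not pass in either region and no member fell. Without the wells of over 10% ribosomal RNA the counts were again 6 and 8, with the share of all genes not counted. The median log2 fold change of the members was 0.988 in cortex and 1.201 in hippocampus, and that of all genes tested was 0.01 and 0.003. Calls are at 0.05 after Benjamini-Hochberg adjustment of the p-values of edgeR's quasi-likelihood test, which also gave the p-values below.

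**Figure D1:**
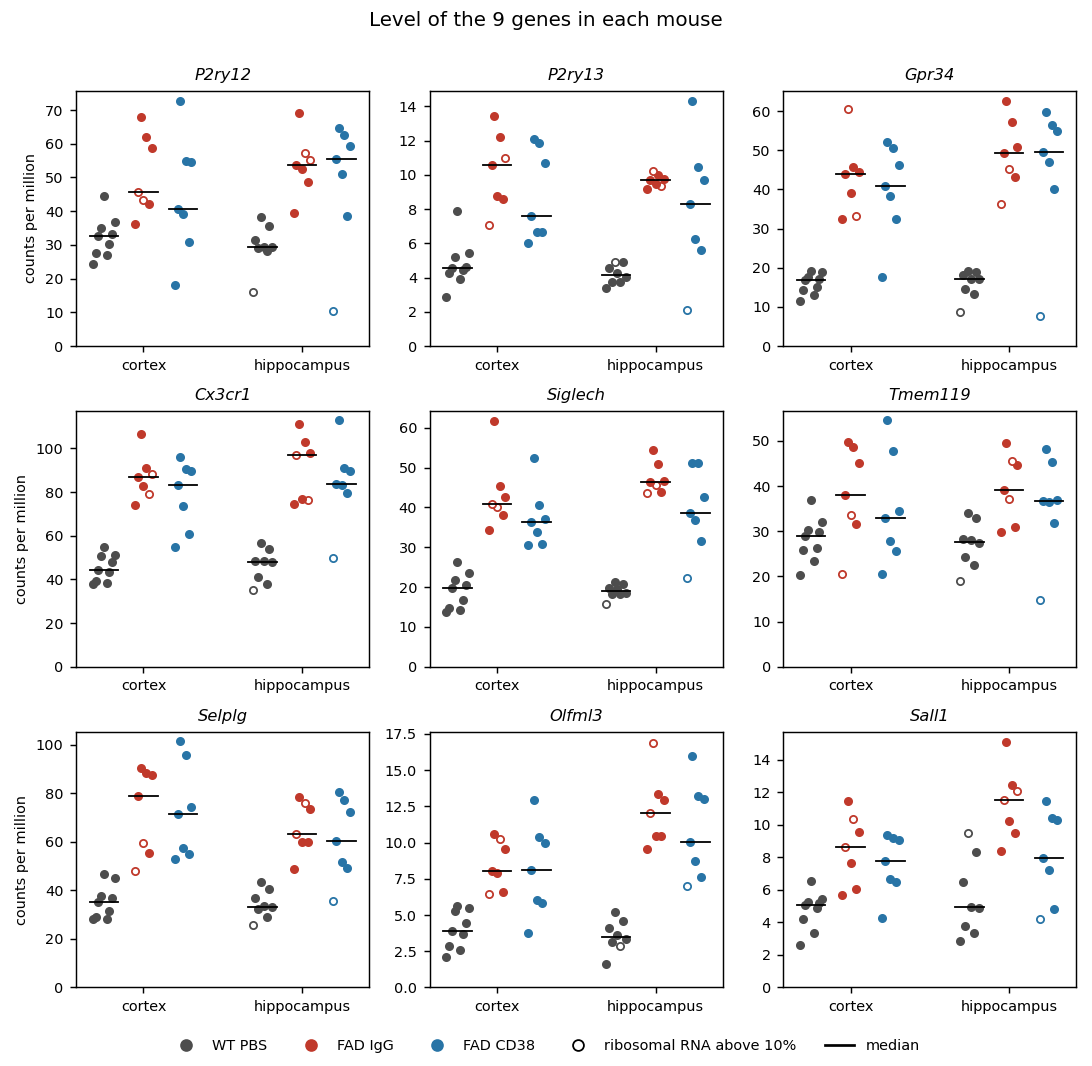
CPM of each of the 9 genes (vertical axes, starting at 0) in every mouse of the 3 groups, in cortex and hippocampus; lines are medians and open points are wells with over 10% ribosomal RNA. Gpr34 in hippocampus runs from 8.64 to 19.3 in WT PBS and from 36.2 to 62.5 in FAD IgG, while the groups overlap for Tmem119.

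P2ry12 is the ADP receptor by which microglial processes find sites of injury. In cortex its level was 24.3, 32.8 and 44.5 CPM (lowest, median, highest) in WT PBS mice and 36.1, 45.6 and 67.8 in FAD IgG mice. Every FAD IgG mouse was above the WT median and 4 of 7 were above the highest WT mouse, so the groups overlapped. The log2 fold change was 0.59 ± 0.21 (SE; adjusted p = 0.154), which was not called. In hippocampus WT mice had 16.1, 29.3 and 38.4 CPM and FAD IgG mice 39.5, 53.7 and 69, with no overlap. There P2ry12 rose by 0.78 ± 0.20 on the log2 scale (adjusted p = 0.0267). That call was lost without pool 5 (0.69, adjusted p = 0.137), pool 6 (0.87, 0.065), pool 9 (0.76, 0.111), pool 10 (0.78, 0.0871) or pool 11 (0.84, 0.0513), each of which leaves fewer mice.

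P2ry13, another ADP receptor, lies beside P2ry12 within Med12l. Its cortical level was 2.89, 4.57 and 7.91 CPM in WT PBS mice and 7.08, 10.6 and 13.5 in FAD IgG mice. Of the 7 FAD IgG mice 6 were above the highest WT mouse. The increase was 1.13 ± 0.20 on the log2 scale (adjusted p = 0.000584). Hippocampal WT mice had 3.42, 4.17 and 4.94 CPM and FAD IgG mice 9.19, 9.72 and 10.2. The 7 FAD IgG mice lay in a narrow band above all WT mice, and P2ry13 rose by 1.23 ± 0.22 (adjusted p = 0.000813). These levels rest on few counts, 6 to 54 per well over the WT PBS and FAD IgG mice.

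Gpr34 is a receptor for lysophosphatidylserine, a lipid released from damaged membranes. In cortex WT mice had 11.4, 16.8 and 19.2 CPM and FAD IgG mice 32.4, 44 and 60.6. In hippocampus WT mice had 8.64, 17.1 and 19.3 CPM and FAD IgG mice 36.2, 49.3 and 62.5. The lowest FAD IgG mouse was well above the highest WT mouse in both regions. Gpr34 rose by 1.42 ± 0.17 on the log2 scale in cortex (adjusted p = 2.26e-06), which is 2.68-fold. In hippocampus it rose by 1.62 ± 0.23 (adjusted p = 8.8e-05), which is 3.07-fold.

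Cx3cr1 is the receptor for fractalkine, a chemokine that neurons present on their surface. Cortical levels were 37.8, 44.4 and 54.7 CPM in WT mice and 74.2, 86.7 and 107 in FAD IgG mice. Hippocampal levels were 35, 48.1 and 56.6 CPM in WT mice and 74.7, 97.1 and 111 in FAD IgG mice. The groups did not overlap in either region. Cx3cr1 rose by 0.93 ± 0.12 in cortex (adjusted p = 6.85e-06) and by 1.04 ± 0.12 in hippocampus (adjusted p = 7.82e-06), both on the log2 scale.

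Siglech encodes a receptor of the Siglec family on microglia and plasmacytoid dendritic cells. In cortex WT mice had 13.8, 19.7 and 26.2 CPM and FAD IgG mice 34.4, 40.9 and 61.7. In hippocampus the WT mice lay close together at 15.6, 19 and 21.3 CPM, and the FAD IgG mice at 43.7, 46.4 and 54.4. No FAD IgG mouse overlapped a WT mouse. The log2 increases were 1.24 ± 0.15 in cortex (adjusted p = 3.16e-06) and 1.28 ± 0.13 in hippocampus (adjusted p = 1.5e-06).

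Tmem119, a transmembrane protein used as a marker of microglia against other macrophages, differed least among the members. In cortex WT mice had 20.2, 28.9 and 36.8 CPM and FAD IgG mice 20.5, 38.1 and 49.8. In hippocampus WT mice had 18.9, 27.7 and 34.1 CPM and FAD IgG mice 29.9, 39.1 and 49.6. The groups overlapped in both regions, although 13 of the 14 FAD IgG values were above the WT median. The log2 fold changes were 0.36 ± 0.18 (95% interval -0.01 to 0.74, adjusted p = 0.349) and 0.42 ± 0.15 (0.10 to 0.74, adjusted p = 0.169), and neither was called. Without pool 7, which holds the cortex-only WT mouse and mouse 2632, the hippocampal value was 0.54 and was called (adjusted p = 0.0121). It was also called with the pool left out of the model (0.53, adjusted p = 0.0367) and with sample quality weights in limma voom (0.38, adjusted p = 0.0226).

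Selplg, the next gene to Tmem119, encodes the ligand of the selectins that slow leukocytes on vessel walls. It rose where Tmem119 did not pass. Cortical levels were 28.3, 35.3 and 46.9 CPM in WT mice and 48, 78.8 and 90.6 in FAD IgG mice. Hippocampal levels were 25.9, 33.3 and 43.5 CPM against 48.7, 63.2 and 78.6. The groups did not overlap in either region, and the log2 increases were 0.99 ± 0.16 (adjusted p = 0.000164) and 0.87 ± 0.13 (adjusted p = 0.000139).

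Olfml3 encodes a secreted olfactomedin-domain protein. In cortex WT mice had 2.09, 3.9 and 5.59 CPM and FAD IgG mice 6.47, 8.04 and 10.6. In hippocampus WT mice had 1.65, 3.47 and 5.17 CPM and FAD IgG mice 9.59, 12.1 and 16.9. No FAD IgG mouse overlapped a WT mouse, on 4 to 48 counts per well. Olfml3 rose by 1.1 ± 0.25 in cortex (adjusted p = 0.00729) and by 1.71 ± 0.21 in hippocampus (adjusted p = 1.06e-05), the largest increase among the members in that region at 3.27-fold.

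Sall1 is the zinc finger transcription factor that holds microglial identity. In cortex WT mice had 2.6, 5.05 and 6.55 CPM and FAD IgG mice 5.71, 8.66 and 11.5, and 5 of 7 were above the highest WT mouse. The log2 fold change of 0.78 ± 0.23 was not called (adjusted p = 0.067). It was called without pool 11 (0.92, adjusted p = 0.0353), with no filter on low counts, and with the pool left out of the model. In hippocampus WT mice had 2.86, 4.93 and 9.47 CPM and FAD IgG mice 8.39, 11.5 and 15.1. Sall1 rose there by 1.201 ± 0.264 (adjusted p = 0.00683), a call lost without pool 5 (1.11, adjusted p = 0.0559) or pool 10 (1.01, adjusted p = 0.0534). Sall1 counts were 7 to 50 per well in these mice.

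Counting only members whose FAD IgG mice all lay above all WT mice gave 5 of 9 in cortex (Cx3cr1, Siglech, Gpr34, Olfml3 and Selplg) and 7 of 9 in hippocampus (also P2ry12 and P2ry13). Over all genes tested this held for 1.89% and 2.95%.

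FAD CD38 and FAD IgG mice were not told apart by any member. None of the 9 was called in cortex or in hippocampus, and 0% of all genes were called in either region. In the same edgeR fits 195 genes in cortex and 197 in hippocampus had an unadjusted p under 0.05, and no member was among them. The members' log2 differences (FAD CD38 minus FAD IgG) ran from -0.25 to 0.01 in cortex and from -0.54 to -0.04 in hippocampus. They were below 0 for 8 of 9 members in cortex and 9 of 9 in hippocampus, with medians of -0.18 and -0.12 against -0.005 and 0.005 over all genes. Mouse 2632, in pool 7, was the lowest FAD CD38 mouse for all 9 members in hippocampus. Without pool 7 the count below 0 was 7 of 9 in cortex and 5 of 9 in hippocampus, and without the wells of over 10% ribosomal RNA it was 8 and 4. Under at least 1 alternative the sign changed for 4 members in cortex and 6 in hippocampus.

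**Figure D2:**
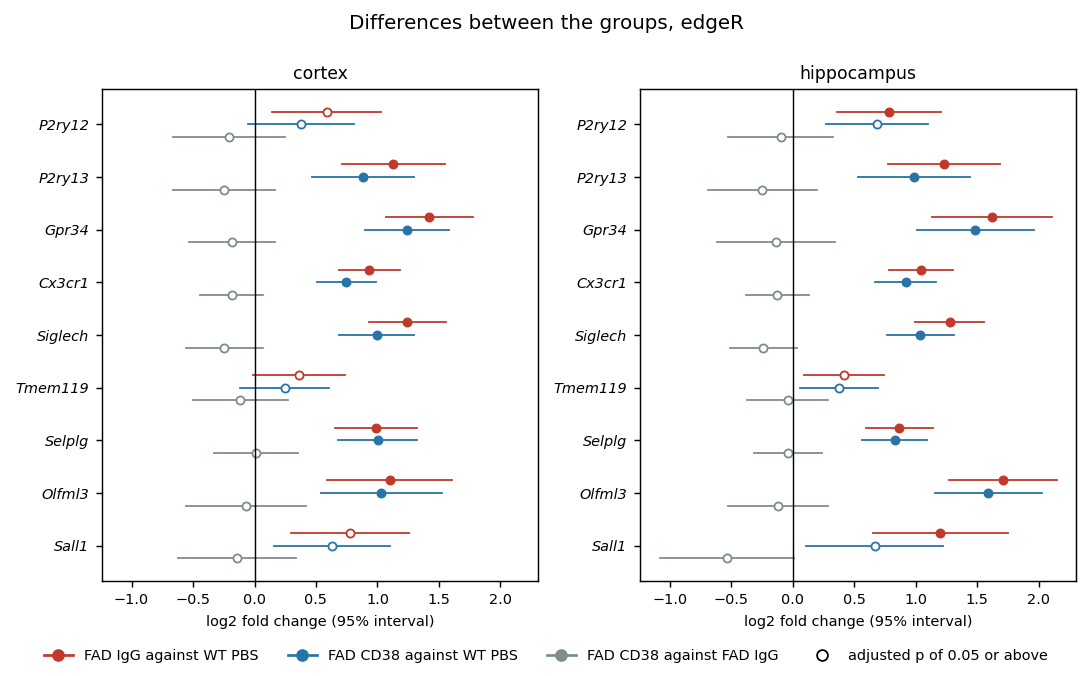
Log2 fold changes (horizontal axes) of the 9 genes with their 95% intervals for the 3 comparisons, in cortex and hippocampus; filled points have an adjusted p under 0.05. All 36 values against WT PBS lie above 0, and 17 of the 18 values of FAD CD38 against FAD IgG lie below 0 with open points, a count that falls when pool 7 or the wells of high ribosomal RNA are left out.

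The intervals show what the group sizes allow. For P2ry12 the levels in FAD CD38 mice were 18, 40.5 and 72.7 CPM in cortex and 10.5, 55.4 and 64.7 in hippocampus. Both spans hold the whole or nearly the whole span of the FAD IgG mice. The difference was -0.21 (95% interval -0.67 to 0.25) in cortex and -0.10 (-0.53 to 0.33) in hippocampus.
Cx3cr1 stood at 55, 83 and 95.8 CPM in cortex and at 49.7, 83.6 and 113 in hippocampus of FAD CD38 mice. Its differences were the most narrowly bounded, at -0.19 (-0.44 to 0.07) and -0.12 (-0.38 to 0.14).
Sall1 had the lowest value, in hippocampus, where FAD CD38 mice had 4.2, 7.95 and 11.4 CPM and the difference was -0.54 (-1.08 to 0.01; unadjusted p = 0.0536, adjusted p = 1). In cortex, with 4.27, 7.76 and 9.34 CPM, it was -0.14 (-0.63 to 0.34).

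Against WT mice, FAD CD38 mice showed 6 of 9 members higher in each region, the same 6 by name in both (P2ry13, Gpr34, Cx3cr1, Siglech, Selplg and Olfml3), beside 3.3% of all genes in cortex and 4.56% in hippocampus. This comparison shares its WT mice with that of FAD IgG, so the 2 are set side by side only. Gpr34 stood at 17.5, 40.8 and 52 CPM in cortex and 7.7, 49.5 and 59.8 in hippocampus, and was higher by 1.24 ± 0.17 and 1.49 ± 0.23 on the log2 scale. Mouse 2632 alone lay within the WT range of Gpr34 in cortex and below it in hippocampus. Siglech, at 30.5, 36.3 and 52.3 CPM in cortex and 22.4, 38.6 and 51.1 in hippocampus, lay above all WT mice in every FAD CD38 mouse. It was higher by 0.99 ± 0.15 (adjusted p = 5.26e-05) and 1.04 ± 0.13 (adjusted p = 1.44e-05).

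Selplg in FAD CD38 mice was at 53.1, 71.4 and 102 CPM in cortex and 35.7, 60.2 and 80.4 in hippocampus (log2 differences from WT of 1.001 ± 0.155 and 0.828 ± 0.127). Cx3cr1 was higher than in WT by 0.75 ± 0.12 and 0.92 ± 0.12. Olfml3 was at 3.79, 8.09 and 12.9 CPM and at 7, 10 and 16, and P2ry13 at 6.01, 7.58 and 12.1 and at 2.1, 8.33 and 14.3. In cortex P2ry13 (0.88, adjusted p = 0.00788) lost its call without pool 6 (0.77, 0.054) or pool 8 (0.77, 0.0582), and Olfml3 (1.03, 0.00964) without pool 6 (0.81, 0.0734). In hippocampus P2ry13 (0.99, 0.0074) lost it without pool 6 (0.82, 0.0543).
Tmem119 was at 20.4, 32.9 and 54.6 CPM and at 14.7, 36.8 and 48.2, and overlapped WT in both regions. P2ry12 in hippocampus missed the threshold at 0.68 ± 0.20 (adjusted p = 0.0505). Without the wells of over 10% ribosomal RNA, mouse 2632 among them, all 9 members were higher in hippocampus. The share of all genes was not counted there. Without pool 7, the pool of mouse 2632, P2ry12 was called at 0.85 (adjusted p = 0.000428) and Tmem119 at 0.54 (0.00893). Every mouse of the FAD CD38 group lay above every WT mouse for 3 members in cortex (Cx3cr1, Siglech, Selplg) and 2 in hippocampus (Siglech, Olfml3), against 1.6% and 2.17% of all genes.

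Genes of the myeloid lineage as a whole also rose in FAD IgG mice. Of 10 genes that macrophages of any kind express, 9 rose in FAD IgG mice in each region, with median log2 fold changes of 1.49 in cortex and 1.80 in hippocampus. Fcer1g, a signalling chain of Fc receptors, rose by 1.94 ± 0.13 and 2.34 ± 0.14, and Laptm5, a lysosomal membrane protein of blood cells, by 2.05 ± 0.17 and 2.06 ± 0.16. Coro1a was the exception, at 0.11 and -0.32, and did not pass in either region. The summed level of the 10 genes was 154 to 213 CPM in WT cortex and 452 to 722 in FAD IgG cortex, and 89.3 to 195 and 483 to 749 in hippocampus.

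The level of each member was therefore also taken relative to these 10 genes, as its log2 CPM minus their mean log2 CPM in the same well. The 10 genes did not rise evenly. Against their own mean, 3 of them were higher and 3 lower in FAD IgG than in WT cortex (limma, adjusted p under 0.05). In hippocampus 3 were higher and 2 lower. On this scale 5 of 9 members were lower in FAD IgG than in WT cortex (limma, adjusted p under 0.05) and 4 of 9 in hippocampus, and none was higher. Since the reference itself rose, 96.5% of all genes tested were lower in each region, with medians of -1.33 and -1.51, so a share of 5 or 4 in 9 is below that background. With so many genes called, the adjustment changed p-values little (Selplg in cortex, limma, unadjusted p = 0.0281, adjusted p = 0.0291). Calls on this scale are therefore close to unadjusted ones. The medians of the members were -0.38 in each region.

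**Figure D3:**
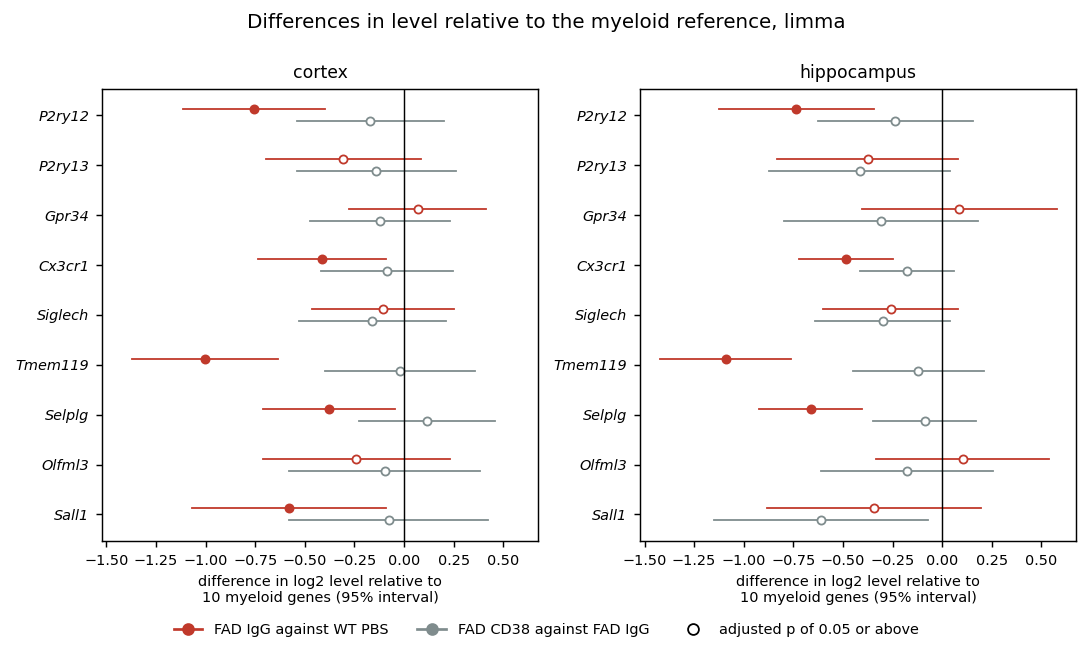
Differences in level relative to 10 myeloid genes (log2, horizontal axes, with 95% intervals) for the 9 genes, in cortex and hippocampus; filled points have an adjusted p under 0.05 in limma. Tmem119 lies at -1.002 and -1.092 for FAD IgG against WT PBS, and Gpr34 near 0 in both regions. The medians of all genes tested are -1.334 and -1.513.

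Among the members Tmem119 was the furthest below WT on this scale, yet it lay above the medians of all genes tested (-1.33 and -1.51). Its relative level was 0.99 to 1.58 (median 1.42) in WT cortex and -0.37 to 0.92 (median 0.55) in FAD IgG cortex, and 0.99 to 1.76 and -0.10 to 0.84 in hippocampus. The groups did not overlap in either region, and the share of all genes without overlap on this scale was not counted. The differences were -1.002 ± 0.18 (adjusted p = 9.25e-06) and -1.09 ± 0.16 (adjusted p = 2.69e-06).
P2ry12 followed, at 1.14 to 1.76 in WT cortex and 0.66 to 1.24 in FAD IgG cortex, and at 1.38 to 1.93 and 0.54 to 1.14 in hippocampus. It was lower by -0.76 ± 0.18 (adjusted p = 0.000228) and -0.74 ± 0.19 (adjusted p = 0.00101), and in hippocampus the groups did not overlap. Both genes stayed below the threshold under all 12 alternatives of that comparison, with the Tmem119 difference between -1.09 and -0.80 in cortex and between -1.198 and -0.925 in hippocampus.

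**Figure D4:**
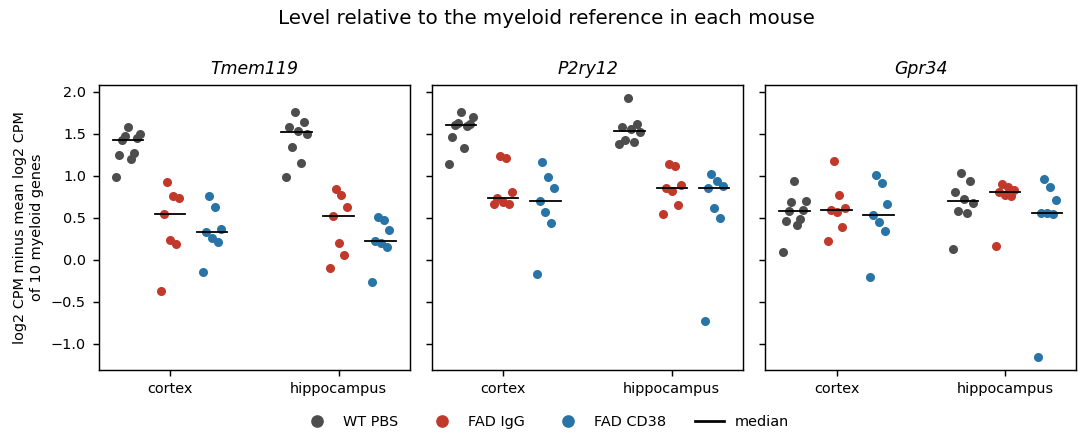
Log2 CPM minus the mean log2 CPM of 10 myeloid genes (vertical axis) in every mouse, for Tmem119, P2ry12 and Gpr34; lines are medians. Tmem119 lies at 0.99 to 1.58 in WT PBS cortex and below that range in each FAD IgG mouse, while Gpr34 overlaps between the groups. The share of all genes without overlap was not counted.

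Other members differed less on the relative scale. Selplg was lower by -0.38 ± 0.16 in cortex (adjusted p = 0.0291) and -0.66 ± 0.12 in hippocampus (adjusted p = 5.16e-05), and Cx3cr1 by -0.41 ± 0.16 (0.0148) and -0.48 ± 0.11 (0.000471). Sall1 was lower in cortex alone (-0.58 ± 0.24, adjusted p = 0.0223), with -0.34 ± 0.26 in hippocampus (adjusted p = 0.202), a regional difference that was not tested on this scale. In cortex the calls of Cx3cr1 (without pool 5, -0.36, adjusted p = 0.0548), Sall1 (without pool 5, -0.48, 0.0822; pool 7, -0.56, 0.0508; pool 11, -0.46, 0.0917) and Selplg (without pool 6, -0.37, 0.0611; pool 10, -0.25, 0.153) depended on single pools. Siglech was at -0.11 ± 0.18 and -0.26 ± 0.16, P2ry13 at -0.31 ± 0.19 and -0.38 ± 0.22, and Olfml3 at -0.24 ± 0.23 and 0.10 ± 0.21, none of which was called. Gpr34 kept pace with the reference, at 0.07 ± 0.17 (95% interval -0.28 to 0.41) and 0.08 ± 0.23 (-0.41 to 0.58). FAD CD38 and FAD IgG mice differed in no member on this scale, and 0% of genes were called in each region. With 1 member, Sall1 in hippocampus (-0.61), the unadjusted p was under 0.05 in limma (0.0285).

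Ratios between 2 members of the same well describe the levels without a reference. The log2 ratio of Selplg to its neighbour Tmem119 was 0.01 to 0.49 in WT cortex, 0.80 to 1.25 in FAD IgG cortex and 0.90 to 1.49 in FAD CD38 cortex. Neither FAD group overlapped WT there. In hippocampus it was 0.17 to 0.57, 0.32 to 1.03 and 0.41 to 1.28, with overlap. For Gpr34 over Tmem119 the medians were -0.89, 0.02 and 0.08 in cortex (WT PBS, FAD IgG, FAD CD38) and -0.80, 0.14 and 0.37 in hippocampus. FAD IgG and WT overlapped in cortex (lowest FAD IgG -0.35, highest WT -0.26) and not in hippocampus (-0.04 and -0.23), and FAD CD38 overlapped WT in both. Siglech over Tmem119 and P2ry13 over P2ry12 overlapped WT in both FAD groups and both regions. The pairs were picked after the levels were seen, and the ratios carry no test.

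The 24 other homeostatic genes fixed for comparison were described in the same way. The part of other brain cells in their levels was not tested. Of the 24, 12 rose in FAD IgG cortex and 14 in hippocampus, none fell, and the median log2 fold changes were 0.78 and 1.03. Csf1r, the receptor that microglia need to survive, rose by 1.08 ± 0.15 and 1.46 ± 0.15. Entpd1, the ectonucleotidase that breaks down ATP and ADP, rose by 0.99 ± 0.15 and 1.21 ± 0.15. Mertk and Bin1 were at 0.07 and 0.15 in cortex and at 0.26 and 0.02 in hippocampus and were not called.

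Of 13 other microglial transcription factors tested, 5 rose in cortex and 7 in hippocampus. Runx1, a factor of blood lineages, rose by 2.98 ± 0.41 and 2.48 ± 0.33, and Spi1, which encodes PU.1, by 1.29 ± 0.27 and 1.47 ± 0.29. Mef2c and Smad3 were at 0.36 and 0.09 in cortex and at 0.28 and -0.09 in hippocampus and were not called. Both are also expressed by other brain cells. Sall3, the paralog of Sall1, was at 0.07 and 0.55 and was not called.

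**Figure D5:**
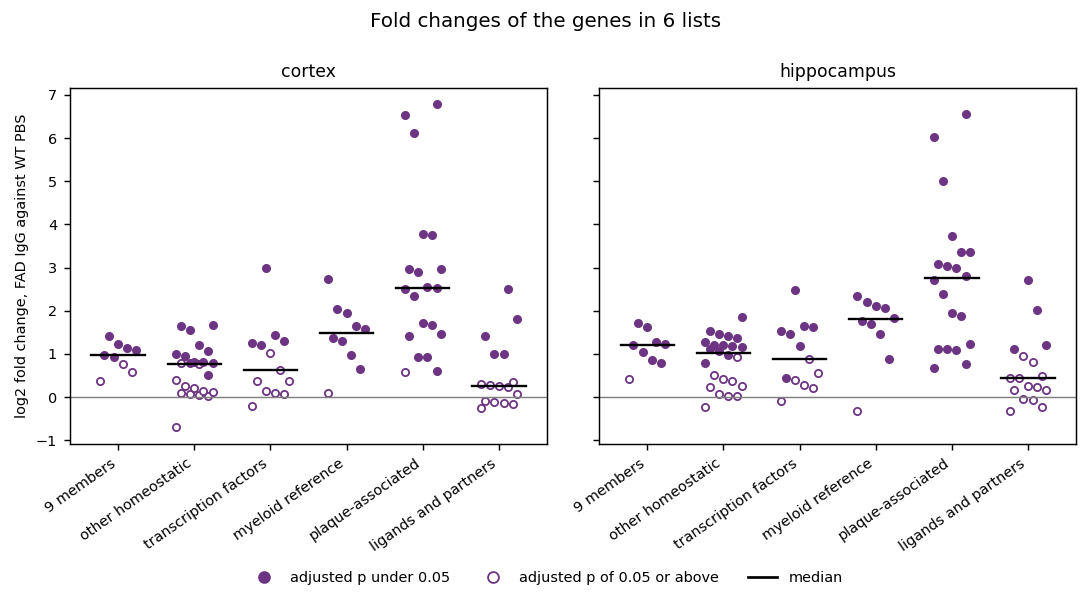
Log2 fold changes of FAD IgG against WT PBS (vertical axis) for each tested gene of 6 lists in cortex and hippocampus; lines are medians and filled points have an adjusted p under 0.05. The medians of the 9 members are 0.988 and 1.201, those of the myeloid reference 1.49 and 1.80, and those of the plaque-associated genes 2.52 and 2.77.

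Genes of the plaque-associated state rose the most, 19 of 20 in cortex and 20 of 20 in hippocampus, with median log2 fold changes of 2.52 and 2.77. Cst7, a cysteine protease inhibitor, rose by 6.79 ± 0.25 and 6.55 ± 0.30, and Lyz2, lysozyme of macrophages, by 2.96 ± 0.16 and 3.37 ± 0.19. Microglia are a known source of these genes, and their relation to the members' rise was not tested.

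Ligands and partners of the members moved less evenly, with 5 of 16 tested higher in cortex and 4 of 17 in hippocampus. Cx3cl1, the fractalkine ligand of Cx3cr1, was at 211 to 615 CPM in WT cortex and 138 to 638 in FAD IgG cortex, with a log2 fold change of -0.14 ± 0.21. In hippocampus it was at -0.33 ± 0.11 (adjusted p = 0.0898), and neither passed. Of the ligands of Csf1r, Csf1 rose by 1.42 ± 0.18 and 1.12 ± 0.18, while Il34 was at -0.24 ± 0.11 and -0.06 ± 0.15. Tgfbr2, a receptor chain for transforming growth factor beta, rose by 1.82 ± 0.21 and 2.02 ± 0.21. Its ligand Tgfb1 was at medians of 0.857 and 1.65 CPM in WT cortex and hippocampus and did not pass the filter on low counts. Tyrobp, the adaptor through which several receptors of this lineage signal, rose by 2.51 ± 0.15 and 2.72 ± 0.14.

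Neighbouring genes were checked because 3' reads near a gene's end can be assigned to a gene it lies within. P2ry12 and P2ry13 lie within Med12l, and Gpr34 lies within Cask. The strand of counting was not stated, so reads of overlapping genes cannot be told apart. Med12l was at 2.6 to 9.43 CPM in WT cortex and 2.03 to 15.5 in FAD IgG cortex (log2 fold change 0.75 ± 0.39, adjusted p = 0.386) and at 0.60 ± 0.43 in hippocampus. Cask was at 0.44 ± 0.27 and 0.07 ± 0.25, against 1.42 and 1.62 for Gpr34. None of the 6 neighbours and hosts tested in cortex and 5 in hippocampus was called in FAD IgG against WT mice. P2ry14, a UDP-sugar receptor of the same cluster, was at 0.80 ± 0.24 in hippocampus (adjusted p = 0.0656), and in FAD CD38 against WT mice it was called there at 0.9 ± 0.24 (adjusted p = 0.0339). Of the wider P2Y family P2ry6, a UDP receptor linked to phagocytosis, rose by 1.56 ± 0.33 in cortex and 1.202 ± 0.282 in hippocampus, the latter call lost without pool 5 (adjusted p = 0.0814).

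Markers of other cells were summed or tested in FAD IgG against WT mice unless another group is named. Of the 11 border macrophage genes measured, 3 were tested in cortex and none in hippocampus, none was called, and their summed level was 16.4 to 26 CPM in WT and 20.5 to 28.7 in FAD IgG cortex. The 6 monocyte and neutrophil genes measured summed to 9.36 to 15.8 and 8.54 to 14.9 CPM there, and the 2 tested in each region were not called. No neuron gene of 9 was called in either region, and in FAD CD38 against WT mice 1 was, Nefm in cortex (0.74 ± 0.17, adjusted p = 0.00743). Astrocyte genes rose for 2 of 8 in cortex and 5 of 8 in hippocampus, led by Gfap, an intermediate filament of reactive astrocytes, at 3.39 ± 0.18 and 2.74 ± 0.14. The 9 lymphocyte genes measured summed to 1.23 to 5.13 CPM in WT and 6.8 to 12.4 in FAD IgG hippocampus, with none passing the filter there, and to 55.8 to 71.6 and 40.1 to 75.3 in cortex. Choroid plexus and ependymal genes summed to at most 8790 CPM in FAD IgG and 15500 in FAD CD38 hippocampus, against at most 279 in WT, while the medians were 68.3, 39.4 and 76.9. Of the 3 tested there 1 rose. Of 8 oligodendrocyte genes 1 rose in each region, and no endothelial or proliferation gene tested did. The part of these cells in the members' levels was not tested.

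Cortex and hippocampus of the same mice differed little in the members. Within WT mice none of the 9 was called (27.8% of all genes were), and the log2 differences, hippocampus minus cortex, ran from -0.29 for P2ry13 to 0.10 for Sall1. Within FAD mice Olfml3 was higher in hippocampus by 0.46 ± 0.12 (edgeR with the mouse as a block, adjusted p = 0.00243), and the other 8 were not called, beside 36.5% of all genes. Other members passed when single pools were left out of this comparison, namely Selplg (-0.24) without pool 5, Gpr34 (0.23) without pool 7, and Sall1 (0.31) and Gpr34 (0.26) without pool 11. In WT mice P2ry12 passed without pool 6 (-0.30, adjusted p = 0.0349).
The difference between the regions in the FAD IgG effect was itself tested with limma. It was called for none of the 9 members and for 0.208% of all genes. For Olfml3 the difference was 0.67 ± 0.25 (95% interval 0.17 to 1.16, adjusted p = 0.418), and for the other 8 it ran from -0.08 to 0.39. The same test for FAD CD38 against FAD IgG called no member and 0% of genes.

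Mice of 1 group also differed among themselves, and members varied together to unlike degrees. After subtracting each group's mean log2 CPM, Pearson's r of a member with the mean of the other 8 was highest for P2ry12 (0.84 over 23 cortex wells, 0.79 over 22 hippocampus wells) and lowest for Sall1 (0.25 and 0.27), one of the members of lowest count. The highest pair in cortex was Tmem119 with its neighbour Selplg (0.84, and 0.68 in hippocampus), and in hippocampus P2ry12 with Gpr34 (0.85, and 0.62 in cortex). P2ry12 and P2ry13 had 0.51 and 0.56. The wells share pools and differ in depth, and the mean of the 9 members had r = 0.38 and 0.57 with the log2 total count of the well and -0.25 and -0.41 with its ribosomal RNA share. In hippocampus mouse 2632 had the lowest P2ry12 and Gpr34 of the FAD CD38 mice (10.5 and 7.7 CPM). Mouse 2756 had the lowest of the WT mice (16.1 and 8.64 CPM). Values of r without these wells, here and in the ranking that follows, were not computed. All r values are descriptions over wells and carry no p.

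Among 12458 other genes tested in both regions, the 6 most like the members' mean on this measure were Slc9a3r1 (r = 0.85 in cortex and 0.79 in hippocampus), C1qc (0.87, 0.72), Trem2 (0.81, 0.77), Galk1 (0.72, 0.84), Myl9 (0.80, 0.75) and Grn (0.76, 0.77). C1qc encodes a chain of the complement starter C1q, Trem2 a lipid receptor of microglia and Grn the lysosomal protein progranulin. Slc9a3r1 encodes a scaffold protein beneath the cell membrane, Galk1 galactokinase and Myl9 a light chain of smooth muscle myosin.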

How the data were processed

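RNA from cortex and hippocampus was measured by mcSCRB-seq, a pooled 3' method, and the authors deposited whole-number counts per gene and well, per the file headers. STAR 2.5.3a and bcl2fastq 2.17 are named in the submitters' processing notes. The genome build, the strand of counting and the collapsing of molecular identifiers were not given in the sources used here. Wells were assigned to groups by the sample sheet and the well names. Mouse 2618, for which these disagree, was left out.

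Genes were filtered per region with filterByExpr (minimum count 10, minimum total 15) and fitted in edgeR 4.0.16 (quasi-likelihood, TMM factors, R 4.3.3) with the 3 groups and the pool as an additive term. P-values were adjusted over all genes tested, and intervals are 95%. Regions were compared with the mouse as a block in edgeR, differences between regions with limma 3.58.1 voom and duplicateCorrelation (correlation 0.256 within a mouse), and levels relative to 10 myeloid genes with limma on log2 CPM (prior count 2). DESeq2 1.42.0 and other settings served as alternatives. Methods were tested on simulated data. The biological coefficient of variation was 0.197 in cortex and 0.23 in hippocampus. P-values of the group comparisons within a region rest on the spread between mice. Those of hippocampus against cortex rest on differences within mice.

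The members and lists were chosen with earlier results of these data known. All members are named. Of each other list, the genes named are those of smallest p in each region and genes whose role bears on a member, the latter chosen after their values were seen. Some genes that this rule would name are not reported here.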

Additional observations from a re-analysis of the deposited data

Results flagged for a closer look

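Of 54 groups of wells (9 genes, 3 groups, 2 regions) examined for a single value far from the rest, 3 held one, and chance gives about 5% of groups. Hippocampal P2ry12 in WT PBS mouse 2756 was 16.1 CPM, the next lowest 28.1, in a well with 23.7% ribosomal RNA. Cortical Siglech in FAD IgG mouse 2602 was 61.7 CPM, the next highest 45.2, in a well with 3.74% ribosomal RNA. Hippocampal Gpr34 in FAD CD38 mouse 2632 was 7.7 CPM, the next lowest 40.2, in a well with 17.2% ribosomal RNA. The part of RNA quality in these values was not tested.

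The mouse whose sheet and well names disagree on treatment entered no group. Of the 9 members, 7 were above the highest WT PBS mouse in its cortex well and 8 in its hippocampus well, and 9 and 8 lay within the range of the FAD mice. The share of all genes that did so in these wells was not counted. These values do not bear on which of the 2 treatments it received.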

How the results depend on the processing

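Each member's value was recomputed under other normalizations, filters, tools and sample sets, 1863 values in all. The 1863 values include the mean of both regions, set beside the value of each region. Of these 1804 kept their side of the threshold, 23 lost a call, 36 gained one and 0 called values reversed. Among the 1804, 77 values that were not called changed sign. The number of members called stayed at 0 for FAD CD38 against FAD IgG under every alternative run. Leaving out 1 pool at a time gave 6 to 7 members for FAD IgG against WT PBS in cortex and 6 to 9 in hippocampus. The share of all genes called was not counted when pools or wells were left out. On the scale relative to myeloid genes, the cortical count of 5 fell to 2 with Fcer1g and Laptm5 taken out of the reference, and to between 3 and 5 without single pools. For hippocampus against cortex the count was 0 to 1 in WT mice and 1 to 3 in FAD mice without single pools. In FAD mice it was 2 with voom and the mouse as a block, and 3 without the wells of high ribosomal RNA, an alternative chosen after seeing the data. The causes were not tested, and leaving out a pool also leaves fewer mice. P2ry13, Olfml3 and Sall1 had the lowest counts, which limits the precision of their values.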

Other observations

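The mean of the cortical and hippocampal group differences was also tested, an alternative chosen after seeing the data. All wells of the 3 groups entered that limma fit, with the mouse as a correlated block. The test called 8 of 9 members in FAD IgG against WT PBS and 8 of 9 in FAD CD38 against WT PBS. Tmem119 was the exception both times, at log2 fold changes of 0.38 (adjusted p = 0.051) and 0.28 (adjusted p = 0.149). Over all 13447 genes tested, 798 and 785 were called higher. No member was called between FAD CD38 and FAD IgG, and Siglech alone had an unadjusted p under 0.05 in limma (-0.24, unadjusted p = 0.0333, adjusted p = 1).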
